A study of Mus musculus with 6 samples.

Results

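The 10 genes described here mark the epithelium that lines the oviduct, measured by RNA-seq in mouse primary oviductal smooth muscle cells. They were chosen by name, as secretory, ciliated and general epithelial markers, and with earlier results of these data known. Each was found once among the 54232 genes of the deposited table: Ovgp1, Pax8, Epcam, Cdh1, Krt7, Krt8, Krt18, Foxj1, Muc1 and Ltf. All 10 were among the 15376 genes abundant enough to test. The cells came from females aged 8 to 12 weeks on day 2 of pregnancy, 3 libraries from controls that the labels call WT and 3 from females with a conditional knockout of Pbrm1 (Pbrm1 cKO), made with floxed Pbrm1 alleles and a cre driven by the progesterone receptor gene (PR-IRES-cre). A legend in the supplement of the study names the controls Pbrm1 fl/fl, without cre, and the labels give neither the strain nor whether a library pools several animals. Oviducts were minced, digested with trypsin, collagenase and dispase, filtered and plated for 4 h in serum, and RNA was taken 2 h after a change of medium. Beyond filtering and plating, the labels name no step that separates cells by type, and the cre is active in cells that express the progesterone receptor, which in this tract include epithelium and stroma as well as muscle.

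The oviduct wall is a folded epithelium on a layer of stroma, wrapped in smooth muscle and covered on the outside by mesothelium. Its epithelium holds secretory cells, which release the fluid that the early embryo lies in, and multiciliated cells, whose motile cilia help to move it. The 10 genes cover both lineages and the features they share. Ovgp1 encodes oviductal glycoprotein, a secretory product that coats the egg and the early embryo, Pax8 is a transcription factor of secretory cells of this tract, Ltf encodes the secreted iron-binding protein lactoferrin, and Muc1 encodes a mucin of the apical membrane. Foxj1 is the transcription factor that switches on motile cilia genes. Epcam and Cdh1 (E-cadherin) join epithelial cells to each other, and Krt7, Krt8 and Krt18 encode keratins of simple epithelia. Keratins 8 and 18 form filaments only as a pair, and mesothelial cells make keratins 7, 8 and 18 as well, so those 3 genes do not mark the inner lining alone.

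Libraries held between 15390818 and 18947947 counts, and a count of 3, used here as a floor that covers counting error only, was worth 0.158 to 0.195 CPM (the usual per-library scaling of read counts, which elsewhere also includes normalization factors). Pbrm1, the targeted gene, was at 170.1, 183.3 and 172.1 CPM in WT and at 43.5, 50.7 and 42.7 CPM in Pbrm1 cKO libraries, 26.0% of the WT mean (adjusted p = 9.13e-11). Pgr, the gene that drives the cre, was at 174 ± 3.20 CPM (SD, n = 3) in WT and 168 ± 13.8 in cKO (adjusted p = 0.508). Mitochondrial transcripts took 7.95 to 8.24% of counts in WT and 6.88 to 7.81% in cKO. The muscle genes of the label were abundant, Tagln at 804 and Acta2 at 722 CPM per kb of exon in WT. In a bulk library, fewer cells of a type and less RNA per cell cannot be told apart, and this holds for every value below.

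Epithelial transcripts were present in all 6 libraries. Krt8 ranged from 4970 to 6134 counts per library and Foxj1 from 76 to 120, all above the floor. Per kb of exon, the only scale on which levels are compared between genes here, Krt18 was highest in WT at 198 CPM per kb and Krt8 next at 156, placing them at the percentiles 99.1 and 98.8 of all genes tested. Ltf followed at 70.9, then Ovgp1 at 25.4 and Krt7 at 24.1, Cdh1 at 15.3 and Epcam at 15.2, Muc1 at 5.98, and the transcription factors Pax8 at 2.43 and Foxj1 at 2.25. The WT ranges of Ovgp1 and Krt7, of Cdh1 and Epcam, and of Pax8 and Foxj1 overlapped on this scale. Exon length here counts all annotated exons of a gene, 7049 bases for Krt7 and 1958 for Krt8, so the order depends on the annotation. Foxj1 stood at percentile 34.4. Keratin 8 transcripts per base of exon were 21.3 to 22.2% of those of Acta2, a smooth muscle actin, in WT and 19.6 to 21.3% in cKO, and Epcam was 1.98 to 2.25% of Acta2 in WT and 3.49 to 3.90% in cKO. Myh11, the smooth muscle myosin heavy chain, was below Krt8 in every library on this scale (Krt8 was 1296 to 1406% of it in WT and 832 to 968% in cKO).

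**Figure D1:**
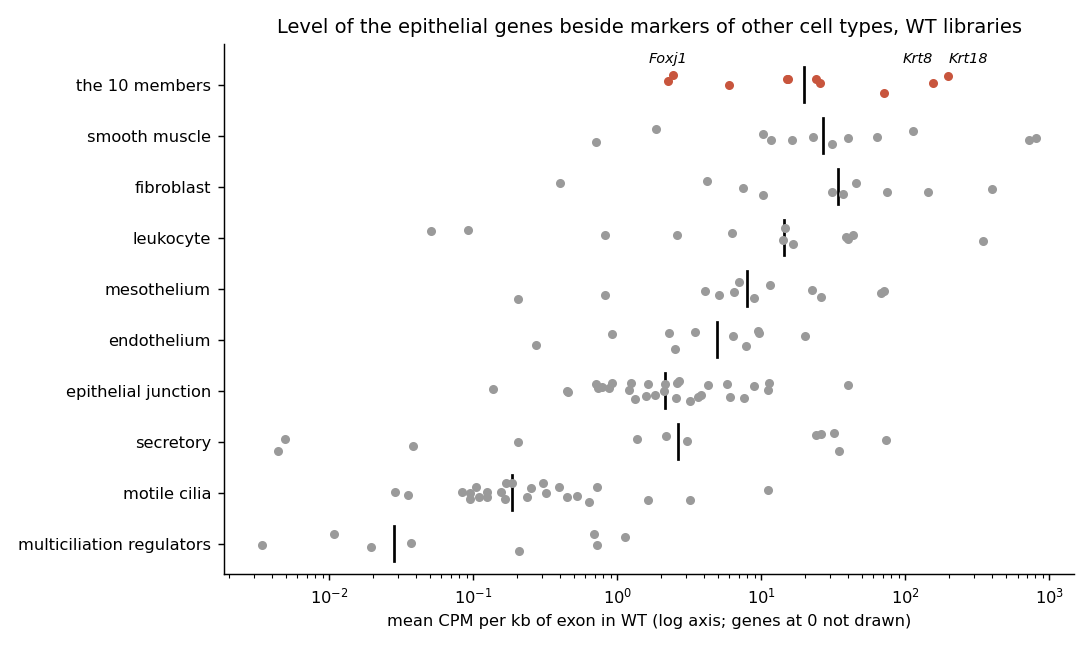
Mean level in the 3 WT libraries (x axis, CPM per kb of exon, log axis) of the 10 epithelial genes (red) and of the genes of 9 marker lists (grey), with the median of each list as a black line. Krt18 and Krt8 lie among the higher smooth muscle, fibroblast and leukocyte markers, Foxj1 at 2.25 is the lowest of the 10, and all multiciliation regulators and the motile cilia genes other than Cfap43 and Tppp3 lie lower than Foxj1.

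Of the 10 genes, 7 were higher in Pbrm1 cKO than in WT, none was lower and 3 did not pass the test (edgeR, adjusted p under 0.05; 1 of these 3, Krt7, was lower at an unadjusted p of 0.0429). Epcam reached 211% of its WT mean, Ltf, Cdh1 and Muc1 150.4, 146 and 132% of theirs, and Krt8, Krt18 and Ovgp1 about 113%, while Krt7, Pax8 and Foxj1 did not pass. Many genes differed in this contrast: 43.7% of all genes tested passed, 21.9% as higher and 21.8% as lower, so that 7 of 10 higher stands beside a share of 21.9%. Because the 10 were chosen with earlier results of these data known, the shares were not tested against each other. The median log2 fold change of the 10 was 0.18, against 0.002 over all genes tested, and their median says nothing on whether they differ from other genes. For 6 of the 10 the WT and cKO ranges were disjoint, all higher in cKO, beside 53.5% of genes in either direction and 26.6% higher in cKO. With a threshold of 0.01, 4 of the 10 (Epcam, Ltf, Cdh1 and Muc1) passed, beside 30.3% of all genes, and with DESeq2 6 did, beside 30.5%. Together the 10 genes took 1150 to 1278 CPM in WT and 1417 to 1565 CPM in cKO.

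**Figure D2:**
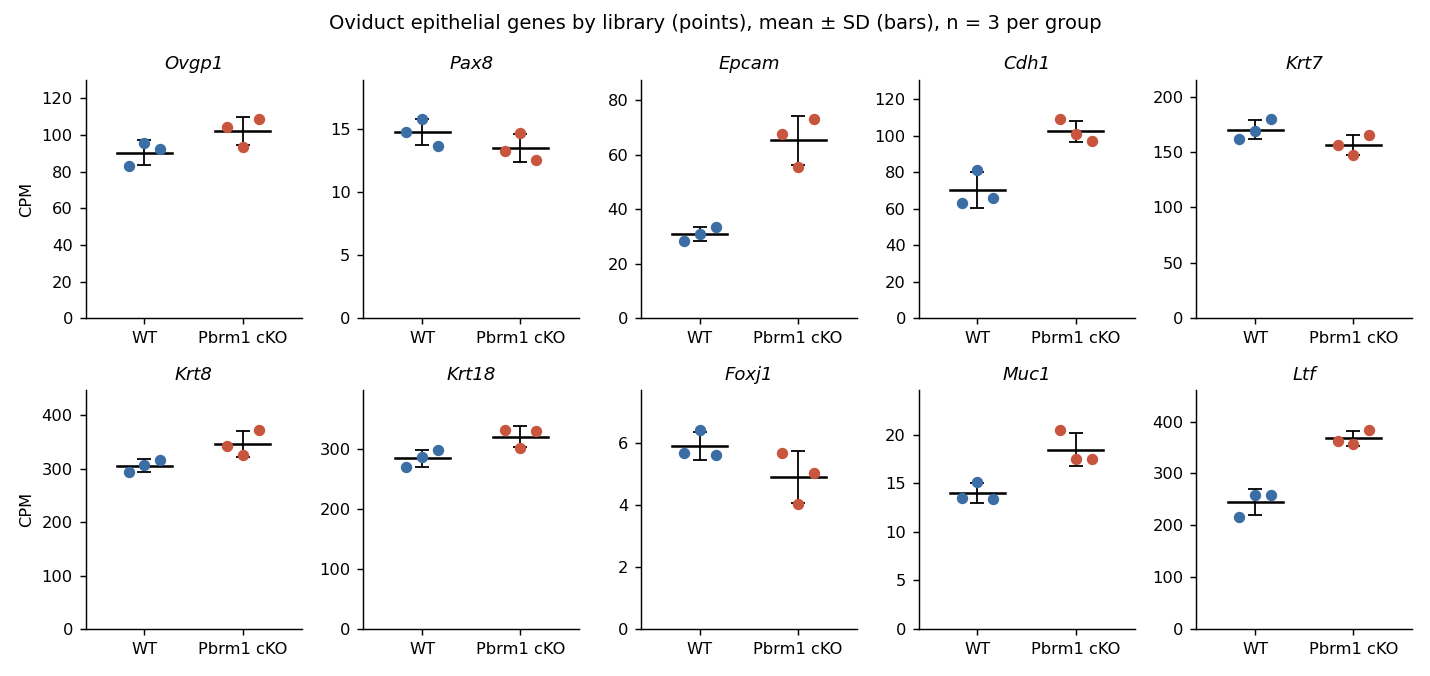
Level of each of the 10 genes in CPM (y axis from 0, own scale per gene) in the 3 WT (blue) and 3 Pbrm1 cKO (red) libraries, with mean and SD. The groups are apart for Epcam, Cdh1, Krt8, Krt18, Muc1 and Ltf and overlap for Ovgp1, Pax8, Krt7 and Foxj1.

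Both adhesion genes rose, Epcam by the most of the 10. Epcam gave 28.3, 31.1 and 33.4 CPM in WT replicates 1 to 3, against 67.5, 55.4 and 73.0 CPM in the cKO replicates. The lowest cKO library was thus well above the highest WT library, and cKO replicate 2 was the lowest of its group. The mean was 30.9 ± 2.57 CPM in WT and 65.3 ± 8.99 in cKO, 211% of WT, with a log2 fold change of 1.07 (SE 0.093, 95% interval 0.874 to 1.274, adjusted p = 9.23e-07). Of all genes tested, 5.64% changed by more in either direction. Cdh1 was at 62.9, 81.5 and 66.1 CPM in WT and at 108.9, 100.8 and 97.3 CPM in cKO. Its groups did not overlap either, although WT replicate 2 stood above the other WT libraries. Its mean rose from 70.2 ± 9.94 to 102.4 ± 5.95 CPM, a log2 fold change of 0.54 (SE 0.081, 95% interval 0.370 to 0.718, adjusted p = 1.13e-04). Epcam and Cdh1 were at nearly equal levels per kb in WT and not in cKO: Epcam was 85.5 to 113% of Cdh1 per base of exon in the WT libraries and 123 to 168% in the cKO libraries, ranges that did not overlap. Against the more abundant Krt8, Epcam was 9.25 to 10.1% per base in WT and 16.3 to 18.96% in cKO, also without overlap, while Cdh1 was 8.94 to 11.4% and 11.2 to 13.7%, with overlap. This pair and the other ratios given here were chosen after the values were seen and were not tested.

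The keratins moved less and not together. Krt8 was at 293.7, 307.2 and 316.6 CPM in WT and at 341.6, 325.4 and 372.1 CPM in cKO. Krt18 was at 270.0, 286.9 and 298.4 CPM in WT and at 331.9, 301.7 and 330.1 CPM in cKO. Neither gene's groups overlapped, but for both the highest WT and the lowest cKO library were close. The log2 fold changes were 0.18 for Krt8 (SE 0.053, 95% interval 0.065 to 0.294, adjusted p = 0.0144) and 0.17 for Krt18 (SE 0.052, 95% interval 0.060 to 0.284, adjusted p = 0.0157). Both calls were lost without WT replicate 1 (adjusted p = 0.0737 and 0.0868), that of Krt8 also without cKO replicate 3 (0.0664) and that of Krt18 without cKO replicate 1 (0.0738). The ratio within the pair did not separate the groups: Krt8 was 77.9 to 79.8% of Krt18 per base of exon in WT and 75.5 to 82.8% in cKO. Krt7 was at 161.9, 168.8 and 179.3 CPM in WT and at 156.2, 147.5 and 165.7 CPM in cKO, so its groups overlapped. Its log2 fold change was -0.12 (SE 0.054, 95% interval -0.236 to -0.004, adjusted p = 0.087), which passed only without cKO replicate 3 (0.0317) and in a fit with the replicate number as a block (0.0448). Krt7 was 15.3 to 15.7% of Krt8 per base in WT and 12.4 to 12.7% in cKO, ranges that did not overlap. Krt8 and Krt18 lie in the keratin cluster of chromosome 15 with 23.7 kb between their starts (GRCm38, Krt8 at chr15:101996698-102004482 on the minus strand, Krt18 at chr15:102028180-102032027 on the plus strand), and Krt7 lies 593 kb from the start of Krt8 (chr15:101411043-101430313, plus strand). A processed copy of Krt8, Krt8-ps, shares 98.6% identity over 941 bases with it and held 198 to 247 counts of its own, so some reads could have been divided between them or dropped.

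**Figure D3:**
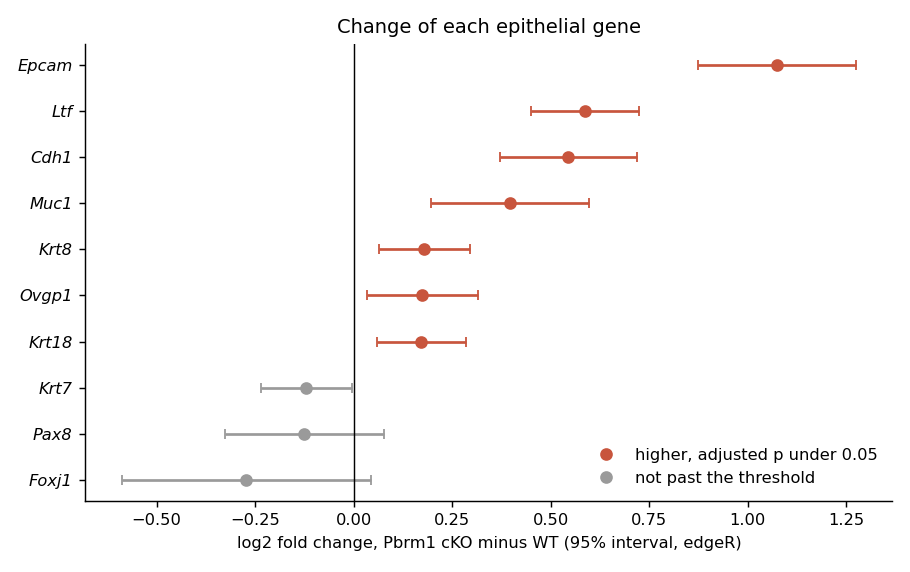
Log2 fold change of each of the 10 genes (x axis, Pbrm1 cKO minus WT, 95% interval by edgeR), in order of size, with genes past the threshold in red. Epcam at 1.07 is apart from the others, Krt8, Krt18 and Ovgp1 sit between 0.17 and 0.18, and the 3 genes in grey are at or lower than -0.12.

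The surface and secreted products rose unevenly. Ltf was at 216, 258 and 259 CPM in WT and at 363, 357 and 384 CPM in cKO. The groups were far apart, and WT replicate 1 was the lowest library of its group. The mean was 244.5 ± 24.7 CPM in WT and 368 ± 14.04 in cKO, 150.4% of WT, with a log2 fold change of 0.59 (SE 0.064, 95% interval 0.451 to 0.725, adjusted p = 7.29e-06). Muc1 was at 13.5, 15.2 and 13.4 CPM in WT and at 20.5, 17.5 and 17.5 CPM in cKO. All cKO libraries were above all WT libraries, and the log2 fold change was 0.40 (SE 0.093, 95% interval 0.197 to 0.597, adjusted p = 0.00353). Ovgp1 was at 82.8, 95.8 and 92.3 CPM in WT and at 104.3, 93.4 and 108.4 CPM in cKO. Its groups overlapped, since cKO replicate 2 was below WT replicate 2. Its log2 fold change of 0.17 (SE 0.065, 95% interval 0.034 to 0.315) was just past the threshold (adjusted p = 0.0441) and was not past it under 6 of 14 alternatives, with DESeq2 (0.0743) among them. Ltf was 269 to 290% of Ovgp1 per base in WT and 360 to 394% in cKO. The annotated transcripts of Ovgp1 share 970 bases with Gm42890, an overlapping gene on the same strand that held 2 to 6 counts. Reads in the shared exons were dropped in the counting, while levels and ratios of Ovgp1 per base use its full exon length of 3561 bases.

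The transcription factors of the lineages did not pass the test. Pax8 was at 14.8, 15.8 and 13.7 CPM in WT and at 13.3, 14.7 and 12.6 CPM in cKO, and its groups overlapped. Its log2 fold change was -0.13 (SE 0.094, 95% interval -0.327 to 0.077, adjusted p = 0.307). Foxj1 was at 5.67, 6.42 and 5.62 CPM in WT and at 5.68, 4.03 and 5.02 CPM in cKO, with cKO replicate 1 inside the WT range. Its log2 fold change was -0.27 (SE 0.147, 95% interval -0.588 to 0.044, adjusted p = 0.153), so at 76 to 120 counts a library neither a moderate fall nor equal levels could be told from the data. Relative to Ovgp1, Foxj1 was 8.27 to 9.30% per base in WT and 5.86 to 7.40% in cKO, ranges that did not overlap, while those of Pax8 to Ovgp1 did (8.72 to 10.5% and 6.80 to 9.25%).

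**Figure D4:**
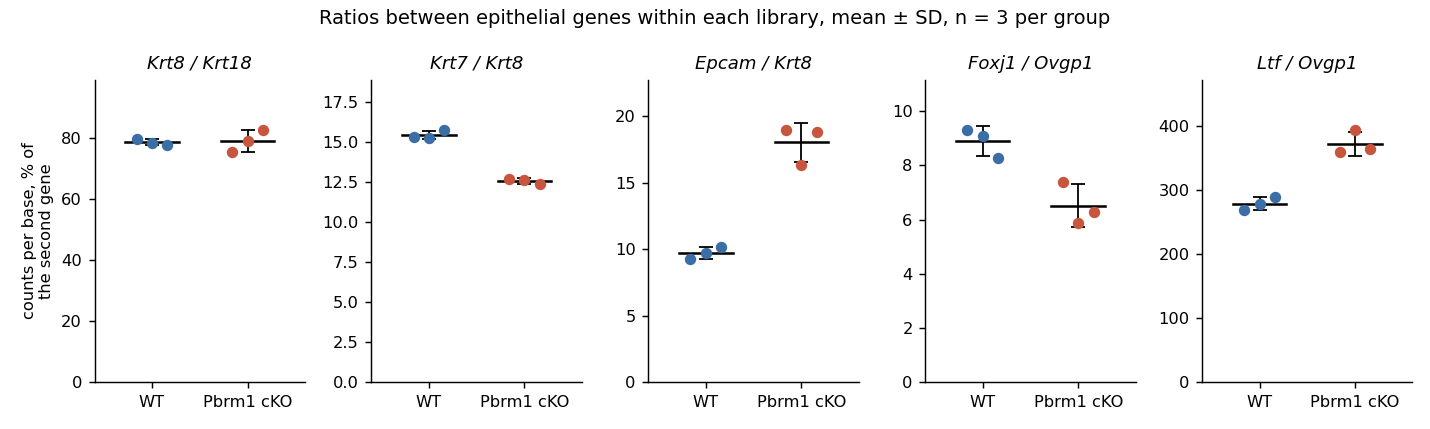
Counts per base of exon of 1 gene as a percentage of a second gene (y axis from 0) in each WT (blue) and Pbrm1 cKO (red) library, with mean and SD. Krt8 to Krt18 overlaps between the groups at 77.9 to 79.8% and 75.5 to 82.8%, whereas the other 4 ratios drawn do not. Of the ratios not drawn, Cdh1 to Krt8, Pax8 to Ovgp1 and Krt8 to Acta2 overlap. Epcam to Cdh1, Krt8 to Myh11 and Epcam to Acta2, not drawn either, do not overlap. All were chosen after the values were seen and were not tested.

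The start regions of genes that rose, and of Pax8, which did not pass the test, are shown for reference, since the knocked-out protein is a subunit of a chromatin remodelling complex that acts at promoters and enhancers. Sequences are from RefSeq (GRCm38.p6), and 8 of the 10 genes matched (Cdh1 and Foxj1 have no entry). Each shows the 250 bases before the RefSeq start, 5′ to 3′ on the gene's strand. For Ovgp1, Krt7, Krt8, Krt18 and Ltf this start lies inside the annotated gene, so the window overlaps the gene coordinates given elsewhere here. Capitals mark matches on either strand to 6 motifs: the E-box CAGGTG, the grainyhead site AACCGGTT, the oestrogen response element (GGTCA and TGACC with 3 bases between them), the nuclear receptor half-site AGGTCA, which can lie inside that element, the GC box GGGCGG and the TATA box TATAAA. Epcam lies at chr17:87635729-87635978 (plus strand), Ltf at chr9:111019042-111019291 (plus), Muc1 at chr3:89228806-89229055 (plus) and Pax8 at chr2:24475600-24475849 (minus).
Epcam: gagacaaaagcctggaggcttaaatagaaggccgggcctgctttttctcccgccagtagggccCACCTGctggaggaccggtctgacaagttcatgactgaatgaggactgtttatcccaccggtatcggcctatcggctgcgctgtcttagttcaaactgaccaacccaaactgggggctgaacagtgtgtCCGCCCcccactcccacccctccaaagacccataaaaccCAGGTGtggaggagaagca
Ltf: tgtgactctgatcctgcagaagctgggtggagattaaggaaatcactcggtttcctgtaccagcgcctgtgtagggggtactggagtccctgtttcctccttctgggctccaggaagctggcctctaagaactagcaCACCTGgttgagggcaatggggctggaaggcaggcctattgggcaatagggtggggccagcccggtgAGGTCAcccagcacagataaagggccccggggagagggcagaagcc
Muc1: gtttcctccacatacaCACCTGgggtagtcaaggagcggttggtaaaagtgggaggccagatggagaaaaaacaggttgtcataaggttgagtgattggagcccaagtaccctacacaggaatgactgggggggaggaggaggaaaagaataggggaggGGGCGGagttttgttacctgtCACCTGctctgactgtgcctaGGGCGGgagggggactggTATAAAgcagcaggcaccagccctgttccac
Pax8: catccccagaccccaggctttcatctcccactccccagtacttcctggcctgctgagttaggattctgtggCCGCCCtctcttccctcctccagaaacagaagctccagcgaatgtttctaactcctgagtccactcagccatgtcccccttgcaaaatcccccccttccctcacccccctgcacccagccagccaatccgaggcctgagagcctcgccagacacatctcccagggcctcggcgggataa

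The Epcam window held the E-box at 2 places, the nearer 19 to 14 bases before the start, and 1 GC box. The Ltf window held 1 E-box and 1 nuclear receptor half-site 46 to 41 bases before the start. Muc1 held 2 E-boxes, 2 GC boxes and a TATA box 31 to 26 bases before the start, and Pax8 held 1 GC box. Among the 8 matched genes, the E-box was found in 7 (Pax8 was the exception), the half-site in 4 (Ovgp1, Krt8, Krt18 and Ltf), the GC box in 4 (Pax8, Epcam, Krt7 and Muc1) and the TATA box in 1. Of 32851 windows of the same length, 17.2% held the E-box, 14% the half-site, 32.7% the GC box and 12.4% the TATA box. The full oestrogen response element (0.0639% of windows) and the grainyhead site (0.116%) were in none of the 8. These are matches of letters and were not tested for binding.

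Genes of the same cells beyond the 10 were taken from lists of named genes, drawn up with earlier results of these data known. Their members are counted here beside 43.7% of all genes. Of 12 further secretory markers, 9 were tested, of which 4 were higher, 4 were lower and 1 did not pass (median log2 fold change -0.01). Lcn2, which encodes lipocalin 2, an iron carrier scavenger, rose from 83.9 ± 8.69 to 177 ± 22.0 CPM (log2 fold change 1.08, adjusted p = 4.64e-07), a step like that of Epcam. C3, the third complement component, was the most abundant per kb at 73.3 CPM per kb in WT and rose by 0.16 on the log2 scale (adjusted p = 0.0213), a call lost without WT replicate 1 (0.0731), WT replicate 3 (0.111) or cKO replicate 1 (0.104). Folr1 and Cldn10 rose as well (0.42 and 0.79). Msln (mesothelin) fell by 0.82 from 54.6 ± 1.62 to 30.8 ± 0.643 CPM, and Muc16, Wfdc2 and Emx2 fell by 1.31, 0.70 and 0.37. Msln and Muc16 are also mesothelial markers. Pigr and Lhx1 were at 0 or 1 count in every library.

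Motile cilia genes were scarce. Mcidas, which with Gmnc starts multiciliation, had 0 counts in all 6 libraries, and Gmnc, Foxn4, Deup1 and Cdc20b were at the floor in each. Of 10 regulators 4 were tested and none passed the edgeR test or DESeq2, with 1 (Ccno, adjusted p = 0.0666) at an unadjusted p under 0.05. Rfx2 (log2 fold change -0.29, adjusted p = 0.176) and Rfx3 (0.06, adjusted p = 0.69), the most abundant of them, are also used by cells with a single cilium. Of 25 genes for the axoneme and its motors 15 were tested, 7 were lower and 1 was higher in cKO, with a median log2 fold change of -0.60. Dnah5, an outer arm dynein heavy chain, fell from 1.71 ± 0.627 to 0.599 ± 0.291 CPM (log2 fold change -1.51, adjusted p = 0.00549), which is 39, 33 and 18 counts against 16, 6 and 9. Cfap44 fell by 1.24 (adjusted p = 0.0113), a call lost without WT replicate 1 (0.0577) or cKO replicate 1 (0.058). Dnaic2, a dynein intermediate chain, went the other way, from 15, 20 and 10 counts in WT to 51, 38 and 31 in cKO (log2 fold change 1.42, adjusted p = 9.05e-04). Tppp3, the second most abundant per kb, did not pass (-0.25, adjusted p = 0.233).

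Cfap43 was the most abundant gene of the cilia list, at 11.1 CPM per kb in WT beside 3.18 for Tppp3. It was at 110.3 ± 2.61 CPM in WT and 94.7 ± 9.17 in cKO (log2 fold change -0.22, adjusted p = 0.011), and the call was lost without cKO replicate 1 (0.064). It overlaps Gsto1, which lies on the other strand and held 2982 to 3823 counts, and what part of its counts came from cilia cells was not tested. The other 24 cilia genes summed to 23.4 to 29.6 CPM in WT and 18.7 to 21.2 CPM in cKO, and 16 of them had a mean under 1 CPM. Of their 14 tested genes 6 were lower and 1 higher. With at least 10 counts required in every library, 5 cilia genes were called in place of 8 and 1 multiciliation regulator in place of 0.

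The junction and epithelial regulator list had more genes higher than lower. Of 30 genes 29 were tested, 10 were higher, 5 lower and 14 did not pass, with a median log2 fold change of 0.31. Ehf, an epithelial ETS factor, rose from 6.72 ± 0.168 to 13.6 ± 1.02 CPM (log2 fold change 1.01, adjusted p = 3.62e-06), and its relative Elf3 rose by 0.65 (adjusted p = 7.47e-05). Cldn4, a tight junction claudin and the most abundant of the list per kb, rose from 72.9 ± 1.67 to 114 ± 5.98 CPM (0.64, adjusted p = 4.32e-07). Dsc2, a desmosomal cadherin, rose by 0.68 (adjusted p = 0.00144). The 5 genes that fell were Cdh3 (P-cadherin), by 0.49, and Dsp, Ppl, Pkp2 and Cgn, by 0.37, 0.33, 0.32 and 0.32. Dsp, Ppl and Pkp2 encode desmosomal plaque proteins, or proteins bound to it, and Cgn encodes cingulin of the tight junction. Cdh1 and Cdh3, both classical cadherins, thus changed in opposite directions, and the difference between the changes was not tested.

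The other keratins also differed in direction. Of 11 genes 8 were tested, 2 were higher and 3 lower. Krt19, a type I keratin of simple epithelia and mesothelium, was at 120.1, 126.4 and 128.4 CPM in WT and at 228.3, 197.5 and 220.9 CPM in cKO. These groups were far apart, with a log2 fold change of 0.79 (SE 0.056, adjusted p = 1.83e-07), and cKO replicate 2 was again the lowest of its group, as for Epcam. Krt6a rose by 0.75 (adjusted p = 2.53e-05), whereas Krt14 fell by 1.10 (adjusted p = 1.09e-04), Krt20 by 0.84 and Krt17 by 0.77. Krt1, a keratin of skin, was at the floor in every library.

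**Figure D5:**
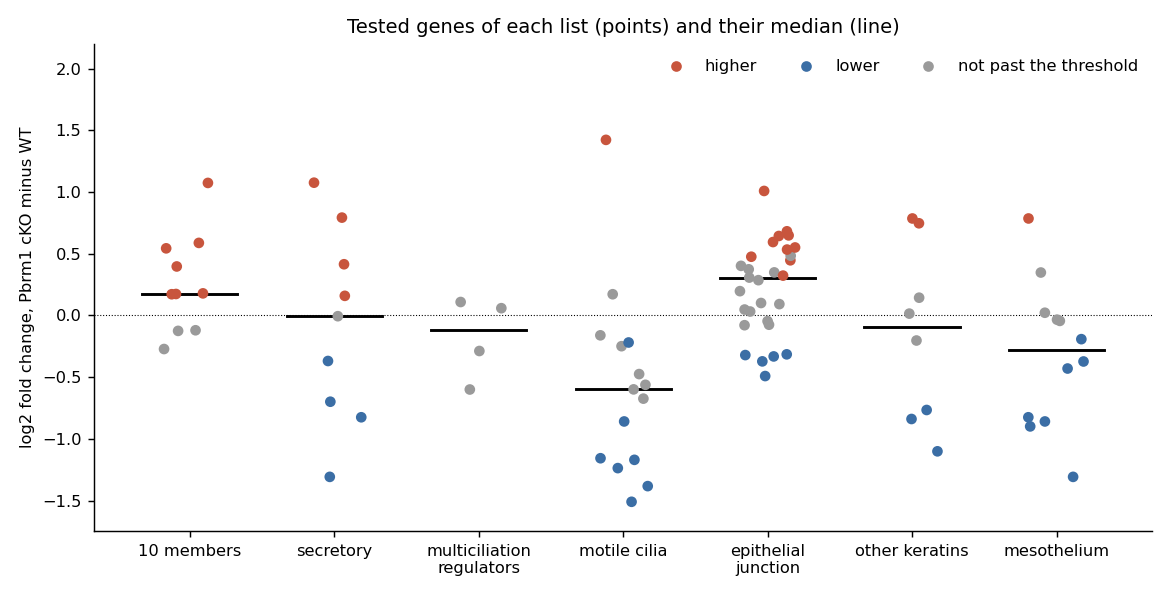
Log2 fold change (y axis, Pbrm1 cKO minus WT) of the tested genes of the 10 members and of 6 lists, with the median of each as a line and genes past the threshold in red (higher) or blue (lower). The medians are 0.18 for the 10, -0.60 for the cilia list and 0.31 for the junction list. Of the groups drawn, each with calls has them in both directions except the 10 members. The leukocyte list, not drawn here, had 10 higher and 0 lower.

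Markers of other cells in the same libraries changed alongside. Mesothelial markers, some of which share keratins and membrane proteins with epithelium, had 7 of 12 lower and 1 (Krt19) higher. The 4 that did not pass were Wt1 (-0.03, adjusted p = 0.636), Upk3b (-0.04, 0.712), Gpm6a (0.02, 0.87) and Nkain4 (0.35, 0.382). Bnc1, a transcription factor of mesothelium, fell from 52.9 ± 0.805 to 28.4 ± 0.431 CPM (log2 fold change -0.90, adjusted p = 4.72e-08). Upk1b fell by 0.86 and Cpe, the most abundant per kb in WT, by 0.19. The list summed to 593 to 603 CPM in WT and 554 to 604 in cKO. These sums include Krt19, the only marker called higher, at a mean of 125 CPM in WT and 216 in cKO. Smooth muscle markers had 6 of 12 higher and 1 lower (Smtn at -0.29, adjusted p = 0.00169). The higher ones were Acta2 at 0.26, Tagln at 0.32, Des at 1.21, Mylk at 1.25, Lmod1 at 0.80 and Myh11 at 0.74. Cnn1, Actg2, Cald1, Synpo2 and Myocd did not pass. The smooth muscle sum rose from a range of 4980 to 5138 CPM to one of 6047 to 6571. Fibroblast markers had 6 of 10 higher and 2 lower, Dpt (-0.65, adjusted p = 5.56e-05) and Thy1 (-0.31, adjusted p = 0.0208). Col15a1 was at 1.39, Dcn at 0.92, Col3a1 at 0.86, and Col1a1 at 0.08 with adjusted p = 0.453. The fibroblast list summed to 4958 to 5538 CPM in WT and 7397 to 7732 in cKO. It includes Col3a1, at a mean of 1417 CPM in WT and 2574 in cKO. Endothelial markers had 2 of 10 higher (Vwf at 1.71 and Egfl7 at 0.45) and 1 lower (Kdr at -0.87), and Pecam1 did not pass (0.13, adjusted p = 0.0577). The endothelial sum was 391 to 413 CPM in WT and 330 to 349 in cKO. It includes Kdr, at a mean of 182 CPM in WT and 99.4 in cKO. The part of these cells in the changes of the 10 genes was not tested.

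Leukocyte markers bear on Ltf and Lcn2, since neutrophils store both proteins in granules. All 10 tested leukocyte markers of 12 were higher in cKO, the sum of the list going from 733 to 784 CPM in WT to 1076 to 1168 CPM in cKO. Too scarce to test were Cd3e (5, 4 and 2 counts in WT, 2, 1 and 0 in cKO) and Cd79a (5, 2 and 0, and 2, 3 and 0). This list does not separate neutrophils from other leukocytes. Lyz2, the most abundant, rose by 0.46, C1qa by 1.25, Cd52 by 1.46 and the pan-leukocyte gene Ptprc by 1.02 (adjusted p = 4.32e-07). Of the neutrophil genes, Ly6g, Cebpe and Retnlg had 0 counts in every library, and Ngp and Elane had at most 1. Others were detected at low counts. In WT and then cKO replicates 1 to 3, Csf3r was at 31, 35 and 25 and at 26, 27 and 19 counts. S100a8 was at 10, 24 and 11 and at 4, 9 and 9, and Mpo at 8, 8 and 10 and at 7, 12 and 10. Camp was at 1, 2 and 3 and at 8, 6 and 12, and Cxcr2 at 3, 5 and 2 and at 2, 1 and 0. Csf3r and S100a8, lower in cKO by mean, did not pass (adjusted p = 0.276 and 0.079). S100a9 had at most 3 counts. Of 14 neutrophil genes 6 were tested, Lcn2 and Mmp8 were higher (1.08 and 0.86) and Mmp9 was lower (-0.31, adjusted p = 0.0385) with overlapping groups, a call lost when any library other than cKO replicate 2 was left out (adjusted p = 0.0714 to 0.179). The list summed to 122 to 139 CPM in WT and 203 to 239 in cKO. Lcn2 is part of these sums, at a mean of 83.9 CPM in WT and 177 in cKO. Mmp9 and Mmp8, also in the sums, had means of 31.8 and 10.0 CPM in WT and 25.5 and 18.3 in cKO. The part of leukocytes in the change of Ltf and Lcn2 was not tested.

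Ltf, Muc1, Lcn2 and C3 are also known to respond to oestrogen in the mouse uterus. Of 13 genes of an oestrogen and progesterone response list, which holds Lcn2 and C3, 12 were tested, 5 were higher and 2 lower, and the median change was 0.04 (log2). Wnt4 rose by 0.45 (adjusted p = 0.004) and Fkbp5 fell by 0.50 (adjusted p = 1.04e-04). Genes of oocytes and early embryos, which also express Cdh1 and could enter a preparation on day 2 of pregnancy, were at the floor for 14 of 15 genes. Zp2, Zp3, Cdx2, Zscan4c and Oosp1 had 0 counts in every library. Gdf9, the only one tested, was at 0.888 ± 0.111 CPM in WT and 0.702 ± 0.368 in cKO (adjusted p = 0.5), and Dppa3 was at the floor.

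The genes whose pattern over the 6 libraries was most like that of Epcam were Laptm4b (Pearson r of log2 CPM 0.9995), Sqor (0.9994), Skap2 (0.9992), 1600002K03Rik (0.9989) and Tmem45a (0.9989), and 182 of 11022 genes with a mean of at least 5 CPM had r over 0.99. For Krt8 they were Actr10 (0.9969), Bag5 (0.9952), Hsd17b10 (0.9948), Zfyve1 (0.9948) and Chmp5 (0.9941), with 9 genes over 0.99. With 6 libraries in groups that differ, such values describe the step between the groups as much as the order within them.

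Outside the keratin cluster, Ovgp1 is at chr3:105973711-105987423 and Muc1 at chr3:89229057-89233381, both on the plus strand, Pax8 at chr2:24420560-24475599 (minus), Epcam at chr17:87635979-87651106 (plus), Cdh1 at chr8:106603351-106670246 (plus), Foxj1 at chr11:116330704-116335399 (minus) and Ltf at chr9:111019271-111042767 (plus). Pax8, Krt7 and Krt8 each overlap a gene on the other strand, with at most 15 counts in a library.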

How the data were processed

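RNA-seq had been made from 6 libraries, 3 per group, with groups taken from the labels. The values deposited by the authors are unnormalized counts of reads, 1 row per gene. Per the file headers, featureCounts 1.6.4 counted reads over GENCODE M18 exons by strand (reverse), with multi-mapping and ambiguous reads dropped by default, and the labels name cutadapt, HISAT2 and GRCm38. The kit marks strand. Symbols were assigned from GENCODE M21 (54079 of 54232 genes). No column was left unassigned.

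Groups were compared with edgeR 4.0.16 in R 4.3.3 (two-sided quasi-likelihood F-test, TMM factors, filterByExpr), adjusted by Benjamini-Hochberg over 15376 genes, with a threshold of 0.05. The fit was tested on simulated data in which far fewer genes changed than were called here. It was therefore not checked at that share of changed genes. The SE is the absolute log2 fold change divided by the square root of F. CPM values use the TMM factors and are given as mean ± SD. Libraries held 15390818 to 18947947 counts, and all pairs within a group differed by more than sampling noise (chi-square per gene 1.31 to 1.60). Where nothing says that libraries came from separate animals, p-values measure only the spread between libraries. Copies were sought with BLAST 2.17.0 (at least 95% identity over 200 bases).

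The members and lists were chosen with earlier results of these data known. Named from each list were the 3 called genes with the largest change at a mean of at least 1 CPM, the 2 most abundant per kb and up to 5 at the floor. Folr1, Cldn10, Wfdc2, Emx2, Krt6a, Cdh3, Dsp, Ppl, Pkp2, Cgn, Ccno, Csf3r, S100a8, S100a9, Mpo, Camp and Cxcr2 were named after their values were seen. So were Smtn, Myh11, Cnn1, Actg2, Cald1, Synpo2, Myocd, Dpt, Thy1, Wt1, Upk3b, Gpm6a, Nkain4, Cd3e and Cd79a. Alternatives were DESeq2 1.42.0, limma-voom (limma 3.58.1), library size, RLE and upper quartile scaling, other filters, a replicate block, and leaving out each library.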

Additional observations from a re-analysis of the deposited data

How the results depend on the processing

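Epcam, Ltf, Cdh1 and Muc1 stayed higher and past the threshold, and Pax8 and Foxj1 stayed short of it, under all 14 alternatives. Of the 10 genes, 7 passed; 4 did at a threshold of 0.01, and 4 to 7 when 1 library was left out, with 4 reached without WT replicate 1. Ovgp1 missed the threshold with DESeq2 (log2 fold change 0.171, adjusted p = 0.0743) and with upper quartile scaling (0.163, 0.0595), and without 1 library it ranged from 0.115 to 0.239. Leaving out 1 library gave 0.125 to 0.227 for Krt8, 0.133 to 0.220 for Krt18 and -0.163 to -0.075 for Krt7. Col1a1 went from 0.08 to -0.013 without WT replicate 3 (range -0.013 to 0.150 without 1 library). When 10 counts were required in each library, the calls were 1 of the multiciliation regulators and 5 of the cilia genes. The causes were not tested. Of 46 other genes named by the rule, with Pbrm1 and Pgr among them, 6 changed call under some alternative. Leaving out 1 library made 13 of the 14 changed calls. Genes named after their values were seen are not in this count. Calls over all genes were 5307 with DESeq2, 4665 at 0.01, and 5532 to 7054 without 1 library. Scalings moved the median of all genes by at most 0.015 (log2).

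Samples with the same replicate number did not deviate together (r = -0.0243, 0.0353 and 0.0928), so the numbers were not taken as pairs. With a replicate block 6908 genes passed, of which 6617 also passed unblocked, and Krt7 passed (-0.12, adjusted p = 0.0448). The block changed no other call among the 10 genes and the 46 named by the rule. Depth limits Foxj1 and the cilia genes, with few counts per library.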
